A study of Mus musculus with 94 samples.

Results

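Digital spatial profiling (DSP) counts were compared between medullary and cortical macrophage segments of mouse kidney on day 14 after ischemia-reperfusion injury (IRI) in the vehicle-treated arm. The segments were chosen by their labels: day 14, vehicle, the IBA1 stain, and the letter for medulla or cortex, which gave 8 of the 94 segments deposited (4 medullary and 4 cortical) and 8 of the 46 macrophage segments. They came from 2 kidney sections, told apart by the label prefix, with 2 medullary and 2 cortical regions of interest (ROIs) in each. Section 1 held replicates 1 and 2 of both regions and section 2 held replicates 3 and 4. The series covers control kidneys and vehicle- or entospletinib-treated kidneys on days 1, 7, and 14, with 2 sections per group. All mice were C57BL/6 males, and entospletinib is an inhibitor of spleen tyrosine kinase (SYK). The injured arms had unilateral IRI of the left kidney, and the vehicle was DMSO given by intraperitoneal injection. The labels and the study's methods give different times for the pretreatment, and the animals' age is not given in the sources used here.

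Each section was read as 1 mouse, since the design names 2 mice per condition, although no label states in words that a prefix stands for a mouse. ROIs were placed by the morphology stains and glomeruli were avoided. Within an ROI, the macrophage segment was the area positive for IBA1, and the tubule segment was the area positive for PanCK, with or without CD10. A segment therefore holds what lies under the stain, and fewer macrophages and less RNA per macrophage cannot be told apart in its counts. The files give an identifier for each probe without the gene it targets, so the labelled cell type and region could not be checked against marker genes and no pathway could be described.

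As background, the cortex of the kidney holds the glomeruli and most of the proximal tubule, whereas the medulla holds the loops of Henle, the collecting ducts, and the vasa recta. The outer medulla works at low oxygen tension and its tubules are sensitive to ischemia. Macrophages of the kidney include resident cells and cells recruited from blood monocytes after injury, and both change their expression with their surroundings. IBA1, encoded by Aif1, is a cytoplasmic protein of macrophages. The comparison asked which probes differed between macrophage areas of the medulla and of the cortex while the kidney was in the late phase after IRI.

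The 4 medullary segments held 574751, 580272, 646082, and 561802 counts in replicate order, and the 4 cortical segments held 947255, 671178, 437694, and 378678. Medulla lay below both cortical segments in section 1 and above both in section 2. The mean log2 total was 19.17 in medulla and 19.12 in cortex, a difference of 0.05 (exact permutation of region labels within sections, two-sided, p = 0.889, 36 arrangements, smallest possible p = 0.0556). Of 20175 probes, 20146 to 20171 had a count in the medullary segments and 19788 to 20175 in the cortical segments (difference of 0.0085 on the log2 scale, exact permutation p = 0.278). Sequencing saturation ran from 74.5% to 79.3%, and the most abundant probe took 3.31% to 4.52% of a segment's counts. Across the series, totals ran from 16693 to 11699181.

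Across the 20171 probes tested, Pearson's r of log2 CPM (counts scaled to a common library size) between segments had a median of 0.902 over the 4 pairs of the same section and region, 0.888 over the 8 pairs of the same region in different sections, 0.879 over the 8 pairs of different regions in the same section, and 0.872 over the 8 pairs that shared neither. These are correlations across probes, which are not independent replicates. Over all 20171 probes, the first principal component held 35.6% of the variance and the regions overlapped on it, with the medullary segments at -3.36 to 38.6 and the cortical segments at -74.9 to 18.5. Within each section, both medullary segments lay above both cortical segments. Over the 5043 probes of the highest-level quartile alone, the first component held 36.7% of the variance and placed the 4 medullary segments at 5.76 to 20.0. Of the cortical segments, replicate 1 lay at 1.09 and replicates 2 to 4 at -10.3 or lower. The cortical segment nearest to the medulla on the axis of the high-level probes was thus the one with the highest total count.

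Between medulla and cortex, 158 probes differed at an adjusted p under 0.05 and more than 2-fold, 72 of them higher in medulla (0.357% of probes tested) and 86 higher in cortex (0.426%). Their median difference was 1.32 on the log2 scale (2.50-fold) in the list higher in medulla and -1.34 (2.52-fold) in the list higher in cortex, while the median over all probes tested was 0.09. The largest differences were 2.47 toward medulla and -3.16 toward cortex. Differences above 4-fold, or 2 on the log2 scale, were seen for 1 probe in the first list and 6 in the second. On the adjusted p alone, 408 probes (2.02%) passed, 179 higher in medulla and 229 higher in cortex, so that 250 of them differed by 2-fold or less. The test was edgeR's quasi-likelihood test with the section as a block and Benjamini-Hochberg adjustment, and 2472 probes had an unadjusted p under 0.05. The ROIs of a section share a mouse, so that these p-values, taken over ROIs, are too small.

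The balance of the 2 lists differed between settings, and the cause was not tested. With upper quartile scaling, 45.6% of the calls were higher in medulla. The same scaling without the section block gave 122 calls, 40 (32.8%) of them higher in medulla. With TMM scaling 180 probes were called, 49 (27.2%) higher in medulla and 131 higher in cortex, and DESeq2 called 156, 40 (25.6%) and 116. Without cortical replicate 1, the deepest segment, 277 probes were called, 130 higher in medulla and 147 higher in cortex, 139 of them shared with the 158.

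**Figure D1:**
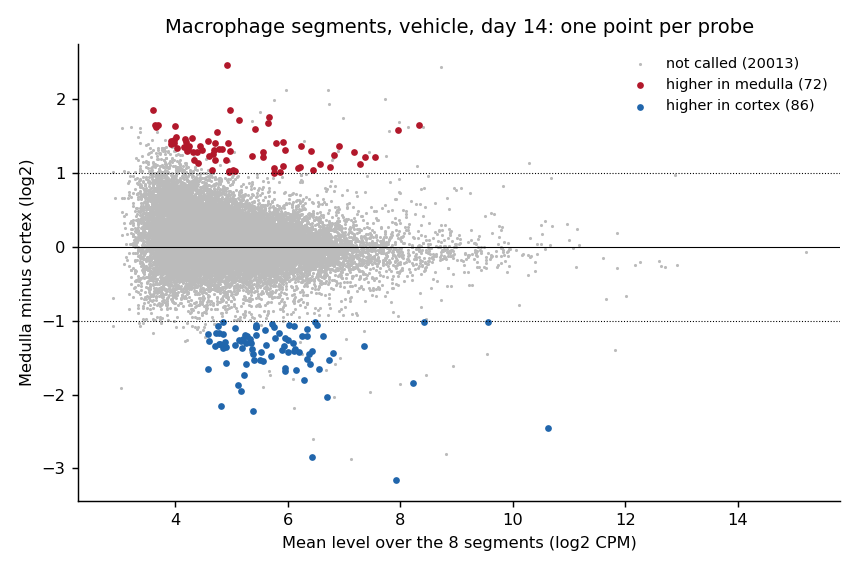
Medulla minus cortex difference (log2) against the mean level over the 8 segments (log2 CPM), with a point per probe and dotted lines at a 2-fold difference. The 72 probes higher in medulla are found at all levels, whereas the 86 higher in cortex begin above the lowest quartile of levels.

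The lists differed in level. Of the 72 probes higher in medulla, 12 lay in the lowest-level quartile of all probes and 24 in the highest, whereas the 86 higher in cortex began in the second quartile, with 6 there and 42 in the highest. The median SE of a log2 difference was 0.41 in the lowest quartile and 0.17 in the highest, so low probes needed larger differences. The median difference over all probes of a quartile was 0.22 in the lowest and -0.02 in the highest, a shift toward medulla among low probes that touches the first list. In the lowest quartile 70.4% of all probes were above 0, and in the highest 47.2%. No background limit was applied, so whether low calls lie above background was not tested. Summed over the 8 segments, the median probe had 131 counts in the first list, 213 in the second, and 117 among all probes tested.

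Values in the 4 medullary segments all lay above, or all below, those in the 4 cortical segments for 49 of the 72 and 70 of the 86 called probes. Over all probes tested, medulla lay wholly above cortex for 2.97% and wholly below it for 2.03%. These shares describe probes that the same values had called.

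In each direction, 2 probes were named, those with the smallest adjusted p among the called probes whose regions did not overlap. Probe RTS0077543 had 217, 237, 313, and 267 CPM in medullary replicates 1 to 4 and 117, 98.7, 108, and 110 CPM in cortical replicates 1 to 4. The cortical values were close together and each medullary value was above all of them. The means were 259 ± 41.5 and 109 ± 7.56 CPM (SD, n = 4 each), and the difference was 1.22 ± 0.13 (SE) on the log2 scale, or 2.32-fold (adjusted p = 1.18e-10). The raw counts behind these values were 128 to 198 in medulla and 41 to 115 in cortex.

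Probe RTS0081325 had 171, 175, 216, and 249 CPM in medulla and 101, 52.9, 74.7, and 91.5 CPM in cortex, which gave means of 203 ± 37.0 and 80.0 ± 21.0 CPM (SD, n = 4 each). The difference was 1.28 ± 0.15 on the log2 scale, or 2.43-fold (adjusted p = 5.52e-09). In both probes the medullary values of section 2 were above those of section 1.

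Of the probes higher in cortex, RTS0068138 had 424, 390, 584, and 613 CPM in medulla and 673, 991, 1231, and 1195 CPM in cortex. Both regions were higher in section 2, and the lowest cortical value, replicate 1, was closest to the medullary range. The difference was -1.02 ± 0.10 on the log2 scale, or 2.03-fold (adjusted p = 9.17e-12), only just past the 2-fold limit, and 4 of 19 alternative settings brought it inside that limit (limma-voom, thinning, and leaving out medullary or cortical replicate 2). Probe RTS0076856 had 35.6, 27.1, 42.6, and 27.5 CPM in medulla and 104, 134, 125, and 105 CPM in cortex. Its difference was -1.80 ± 0.18, or 3.49-fold (adjusted p = 7.05e-11), from raw counts of 15 to 27 in medulla and 39 to 102 in cortex.

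**Figure D2:**
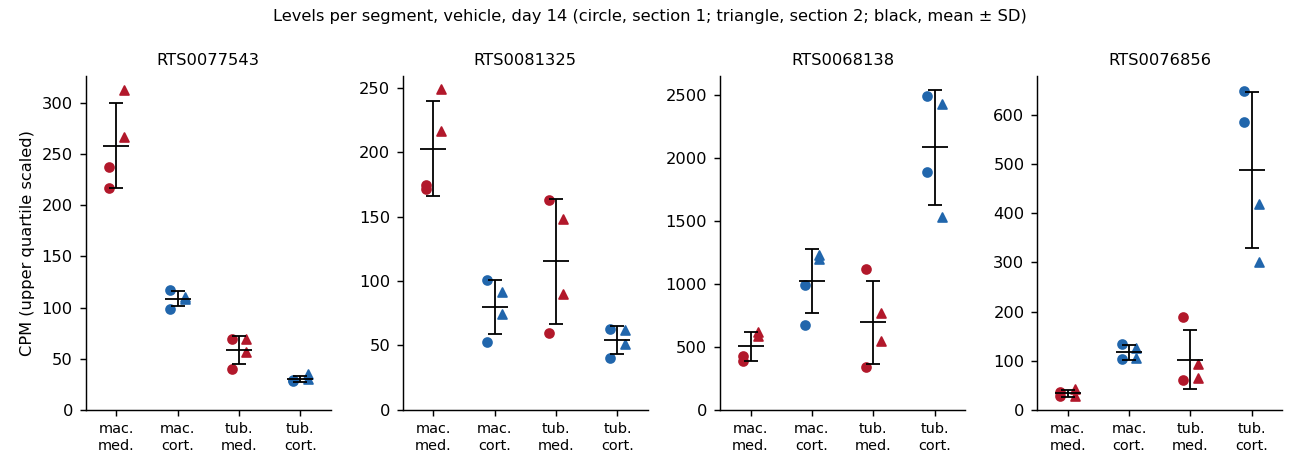
CPM of the 4 named probes in each segment of the vehicle arm on day 14 (circles, section 1; triangles, section 2; black, mean ± SD of 4 segments), for macrophage and tubule segments of medulla (red) and cortex (blue). In the macrophage segments the regions are apart for all 4 probes, and in the tubule segments RTS0081325 overlaps between regions.

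The direction was shared by both sections for all 158 probes, which were selected on the same values. Within section 1 the median log2 ratio of medulla to cortex was 1.09 for the list higher in medulla and -1.21 for the list higher in cortex, and within section 2 it was 1.30 and -1.29. Over all probes tested it was 0.08 and 0.09. A ratio above 2-fold in both sections was seen for 33 of the 72 and 46 of the 86. Across all probes tested, the section 1 and section 2 ratios had a Pearson's r of 0.226, as a description.

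Fitted alone, section 1 gave 103 calls, 30 higher in medulla and 73 higher in cortex, and section 2 gave 238, 108 and 130. Of the 158 probes, 56 were called in section 1 and 92 in section 2. With counts summed per section and region, so that the section was the replicate, 199 probes were called, 87 and 112, of which 151 were among the 158, with only 1 residual degree of freedom. The test of the difference between sections called 7 probes (0.0347% of 20171), and 1281 probes (6.35%) had an unadjusted p under 0.05 over ROIs. In all 7 the log2 medulla-to-cortex difference was lower in section 2, by 0.59 to 3.08, and 1 of the 7 was among the 86 probes higher in cortex, where its log2 ratio was -0.25 in section 1 and -2.67 in section 2. With TMM scaling 9 probes were called, 2 with the higher value in section 2. DESeq2 called 3 probes for the same difference, all with the higher value in section 2 and 0 of them among the 7, so no probe differed between sections by both tools.

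**Figure D3:**
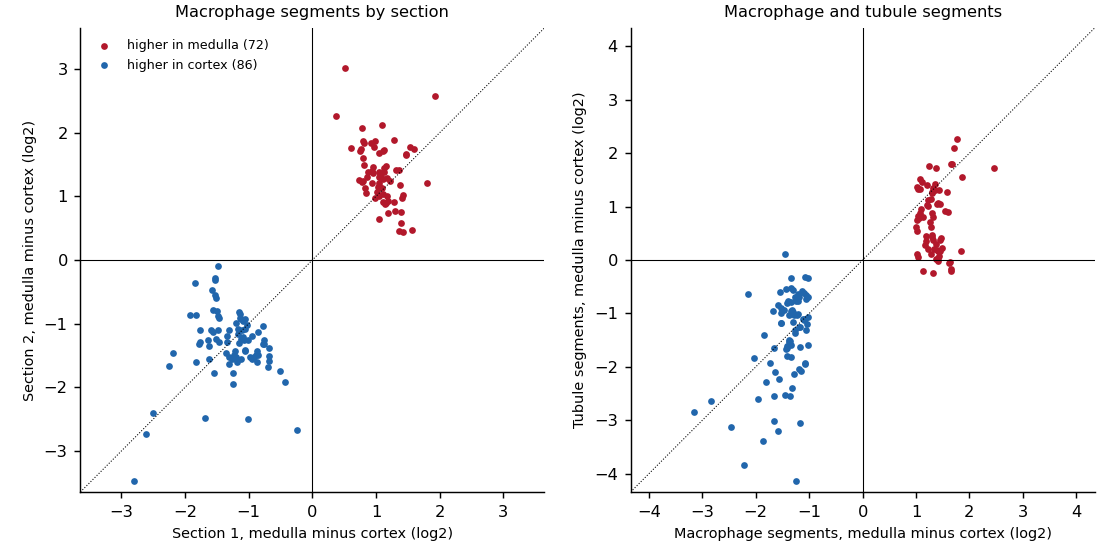
Left, log2 ratio of medulla to cortex of the 158 called probes in section 2 against section 1. Right, log2 difference of the same probes in the tubule segments against the macrophage segments, with the dotted line at equality. In the right panel 65 of 72 red and 85 of 86 blue points have the same sign in both compartments. Of all probes, 64.5% were above 0 and 35.5% below 0 in the tubules.

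The tubule segments of the same 8 ROIs showed whether the regional difference was shared by the epithelium beside the macrophages. These segments held 588814 to 6418303 counts, the lowest being medullary replicate 1. In them, 81 probes (0.401% of 20175) were higher in medulla and 100 (0.496%) higher in cortex by the same thresholds over ROIs. Of the macrophage lists, 13 of 72 were called higher in medulla in the tubules too, 18.1% of that list and 16.0% of the tubule list. For the list higher in cortex, 17 of 86 were shared, 19.8% of that list and 17.0% of the tubule list. With TMM scaling the tubules gave 186 calls, 63 higher in medulla and 123 higher in cortex. The tubule list was 330 probes with DESeq2, 273 without medullary replicate 1, and 313 without medullary replicate 3.

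The median tubule difference was 0.80 for the probes higher in medulla and -1.18 for the probes higher in cortex, and 0.07 over all probes tested. The same sign as in macrophages was found for 65 of 72 and 85 of 86. Of all probes, 64.5% were above 0 and 35.5% below 0 in these tubule segments. Across all 20171 probes the macrophage and tubule differences had a Pearson's r of 0.439, a description over compartments that share ROIs, sections, and slides.

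In the tubules, RTS0077543 had 40.0, 69.0, 56.2, and 69.6 CPM in medulla and 29.4, 27.8, 29.8, and 34.8 CPM in cortex (1.01 ± 0.15 on the log2 scale, adjusted p = 0.00248). RTS0081325 had 59.9, 163, 89.6, and 148 CPM against 63.0, 40.5, 50.8, and 62.1 CPM, which overlapped (1.15 ± 0.32, adjusted p = 0.135). The probe RTS0068138 had 1117, 342, 766, and 545 CPM against 1888, 2490, 1532, and 2427 CPM (-1.60 ± 0.39, adjusted p = 0.0984). RTS0076856 had 190, 61.1, 93.0, and 65.2 CPM against 649, 586, 301, and 418 CPM (-2.28 ± 0.35, adjusted p = 0.0198). Thus 2 of the 4 named probes were called in the tubules, and in both probes higher in cortex the shallow medullary replicate 1 was the highest of the medullary segments.

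Fitted with each ROI as a block, the difference of the macrophage and tubule effects was called for 83 probes (0.411% of 20171). The signed log2 medulla-to-cortex value was larger in macrophages for 40 and in tubules for 43. Of the 83, 5 were among the 158. In 1 probe higher in medulla and 1 higher in cortex the difference was larger in the macrophage segments, and in 3 probes higher in cortex it was larger in the tubules. None of the 4 named probes was called by edgeR in this test (adjusted p of 0.669 to 0.809), with values of 0.27, 0.28, 0.70, and 0.55 in the order named above. With TMM scaling 99 probes were called, 33 with the larger signed value in macrophages and 66 with the larger signed value in tubules. The 83 calls became 2 without the ROI block, 52 with DESeq2, 34 with counts thinned to a single total, and 24 to 182 as 1 ROI was left out: 24 without cortical ROI 1 and 182 without medullary ROI 1. P-values over ROIs are too small here as well, and which probes differ between compartments was not settled at this number of sections.

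The lists also differed in which compartment had the higher level. In the same ROIs, 70 of the 86 probes higher in cortex were higher in tubule than in macrophage segments and 3 were higher in macrophage segments, by an adjusted p under 0.05 and more than 2-fold over ROIs, with each ROI as a block. Over all probes tested, 2.60% were higher in tubule segments and 2.26% in macrophage segments. Among the 72 probes higher in medulla, 9 were higher in macrophage segments and the other 63 passed in neither direction. The median macrophage minus tubule difference was -1.65 on the log2 scale for the list higher in cortex, 0.21 for the list higher in medulla, and 0.02 over all probes tested. Whether tubule RNA within the macrophage area takes part in the list higher in cortex was not tested.

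RTS0077543 was higher in macrophage than in tubule segments by 2.03 on the log2 scale (adjusted p = 8.36e-16), and RTS0081325 by 0.75 (adjusted p = 1.98e-05). RTS0076856 was lower in macrophage segments (-1.82, adjusted p = 1.96e-07), and RTS0068138 had a value of -0.68 (adjusted p = 0.104).

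Summed over a list, the 86 probes higher in cortex took 0.870%, 1.40%, 1.14%, and 1.06% of the counts in cortical macrophage segments and 0.302% to 0.413% in medullary ones. In the tubule segments they took 2.58% to 4.68% in cortex and 0.526% to 2.13% in medulla. The 72 probes higher in medulla took 0.439%, 0.537%, 0.514%, and 0.506% in medullary macrophage segments and 0.251%, 0.180%, 0.167%, and 0.175% in cortical ones. In the tubules they took 0.194% to 0.400% in medulla and 0.140% to 0.170% in cortex. Medullary and cortical segments did not overlap in any of these 4 sums. In the macrophage segments this follows from how the lists were chosen.

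**Figure D4:**
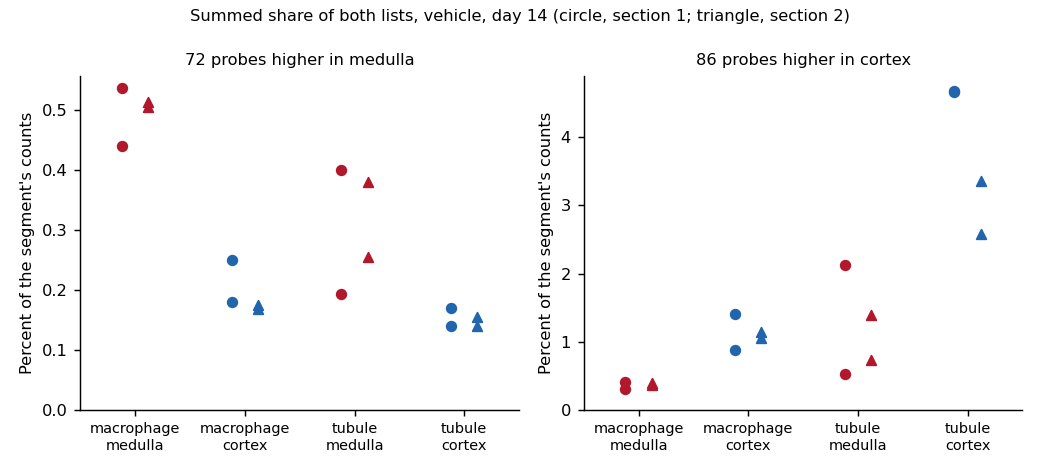
Percent of each segment's counts taken by the 72 probes higher in medulla (left) and the 86 probes higher in cortex (right), per macrophage or tubule segment of the vehicle arm on day 14 (circles, section 1; triangles, section 2). The cortex list takes at most 1.40% in macrophage segments and up to 4.68% in tubule segments, and medulla and cortex are apart in all 4 pairs.

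The entospletinib arm on day 14 had the same layout of 4 medullary and 4 cortical macrophage segments in 2 other sections, at totals of 58579 to 220585 counts against 378678 to 947255 in the vehicle arm. At that depth 14687 probes were tested, and 67 (0.456%) were higher in medulla and 137 (0.933%) higher in cortex over ROIs. Of the 72 vehicle probes higher in medulla, 51 could be tested and 1 was called (1.39% of that list, 1.49% of the entospletinib list). Of the 86 higher in cortex, 84 could be tested and 36 were called, 41.9% of that list and 26.3% of the entospletinib list. The median log2 ratio was 0.16 for the first list and -0.77 for the second, beside 0.06 over all probes. These ratios used a prior count of 2, which pulls low counts toward 0, and included the probes of each list that could not be tested.

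The named probes showed the same split. RTS0068138 had 403 to 931 CPM in medulla and 1142 to 2495 CPM in cortex under entospletinib (-1.56 ± 0.22 on the log2 scale, adjusted p = 1.35e-08), and RTS0076856 had 54.6 to 86.9 CPM against 273 to 447 CPM (-2.43 ± 0.29, adjusted p = 2.74e-11). RTS0077543 had 43.4 to 82.7 CPM against 31.0 to 49.6 CPM, which overlapped (0.78 ± 0.41, adjusted p = 0.668). Its raw counts were 5 to 15 in medulla and 3 to 9 in cortex. RTS0081325 had 99.3 to 119 CPM against 49.6 to 177 CPM, which overlapped (0.09 ± 0.32, adjusted p = 0.988).

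A call in one arm and not in the other does not show that the arms differ. The test of the difference between arms called 87 probes (0.431% of 20171). Its probes were filtered on the vehicle counts alone, so some had too few entospletinib counts to be tested in that arm. The signed log2 medulla-to-cortex value was larger in the vehicle arm for 39 and in the entospletinib arm for 48. Among the 87 were 2 of the 72 probes higher in medulla, both with the larger difference toward medulla under vehicle. They also held 12 of the 86 higher in cortex, 7 with the larger difference toward cortex under vehicle and 5 under entospletinib. The named probes had signed values of 0.37, 1.15, 0.48, and 0.60 (adjusted p of 0.134 to 0.974). In the 2 probes higher in cortex, these values mean a larger difference toward cortex under entospletinib. Without the section block 37 probes were called, and 16 after all segments were thinned to the lowest total, which left 5682 probes to test. Treatment, section, and depth cannot be told apart with 2 sections per arm.

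In the other groups the lists were followed as descriptions, with 2 medullary and 4 cortical macrophage segments per group except for entospletinib on day 14. For the 86 probes higher in cortex, the median log2 ratio of medulla to cortex in macrophage segments was -0.06 in controls, -1.56, -0.52, and -1.21 on days 1, 7, and 14 under vehicle, and -0.49, -0.49, and -0.77 under entospletinib. The day 14 vehicle value chose the list. A ratio below 0 was found for 47 of 86 in controls, where 41.5% of all probes were below 0, and for 82 of 86 on day 1 under vehicle, where 45.5% were.

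For the 72 probes higher in medulla, the macrophage medians were 0.21 in controls, 0.13, 0.03, and 1.16 on days 1, 7, and 14 under vehicle, and 0.02, -0.04, and 0.16 under entospletinib, against medians of 0.0019 to 0.09 over all probes. In the tubule segments this list had a median of 0.77 on day 14 under vehicle and of -0.20 to 0.24 in the other 6 groups. The median of this list was thus near that of all probes in the other macrophage groups. Depth there was lower in most groups (16693 to 771296 counts per segment), while the vehicle day 7 segments held 328462 to 771296. The prior count of 2 pulls ratios of low counts toward 0. Whether depth takes part in these medians was not tested. A ratio above 0 was found for 49 of 72 in controls, where 58.5% of all probes were above 0. On day 7 under entospletinib it was found for 35 of 72, where 50.3% were. These differences between groups were not tested, except for the arms on day 14.

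**Figure D5:**
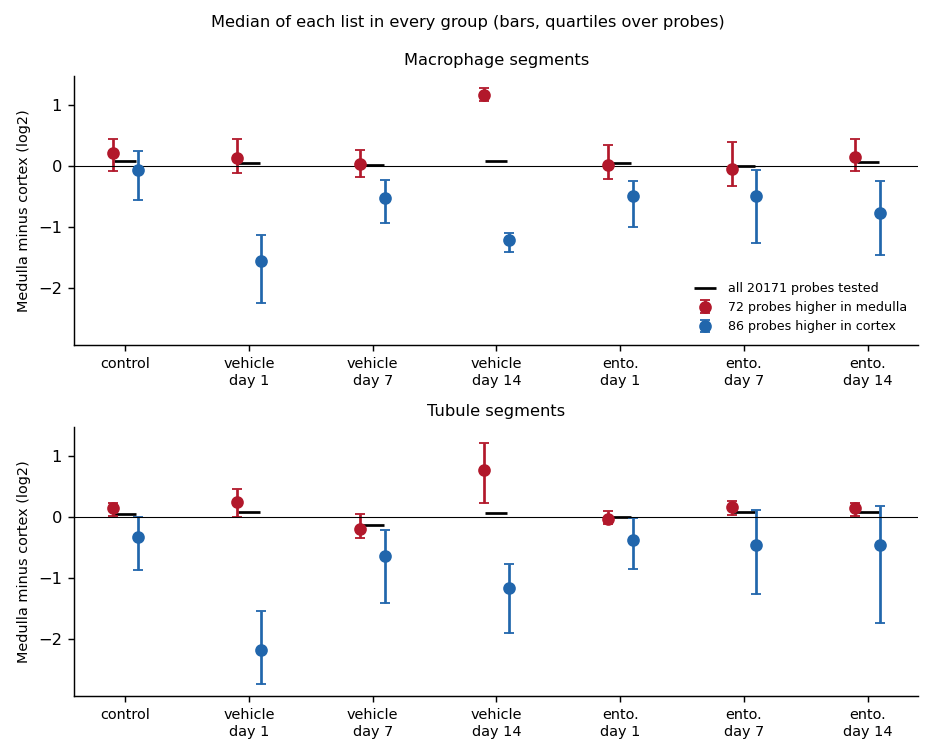
Median log2 ratio of medulla to cortex of the 72 probes higher in medulla (red) and the 86 higher in cortex (blue) in each group, for macrophage (top) and tubule segments (bottom). Bars are quartiles over probes and black marks the median of all 20171 probes tested. The red medians stand apart from black in the vehicle day 14 group, which supplied the lists, and the blue medians are lowest on day 1 under vehicle.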

How the data were processed

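The authors profiled fixed kidney sections with the GeoMx platform and its mouse transcriptome-wide probe panel, and barcodes released by UV light were sequenced. The authors deposited raw counts of unique molecular identifiers per probe for each segment, made with the GeoMx NGS Pipeline (version 3.1.1.5 per the file headers, 2.2 in the series description, 1.1 per the labels), before background evaluation, probe aggregation, filtering, and upper quartile normalization. In 13 of the 94 files 2 quality fields held the same value, which does not bear on the counts. The counts were whole numbers in all 94 files. The 2 samples that the study removed as outliers could not be matched to labels, and all segments were kept. Segment area and nuclei counts were not used here.

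Probes with a sum of 20 or more over the 8 segments were tested (20171 of 20175). For the tubule comparison and the entospletinib arm the sum was taken over their own 8 segments. For the differences between compartments and between arms it was taken over the 8 vehicle macrophage segments alone. After upper quartile scaling, quasi-likelihood tests were run in edgeR (version 4.0.16, R 4.3.3) with robust dispersion and with the section, or the ROI where compartments were compared, as a block. Calls needed an adjusted p below 0.05 and a log2 fold change beyond 1 in size, and differences between effects on the adjusted p alone. A positive value means higher in medulla. For a difference between effects, it means a higher medulla-to-cortex value in macrophages, in the vehicle arm, or in section 2. SE is the absolute log2 fold change over the square root of F. Log2 ratios by section and by group used a prior count of 2. Named probes were the 2 called probes in each direction with the smallest adjusted p among those whose regions did not overlap. Alternatives were TMM, DESeq2 (version 1.42.0), limma-voom (version 3.58.1), other filters, no block, section sums, all 46 macrophage segments in 1 fit, thinning, single sections, and leaving out each segment. Levels of macrophage and tubule segments were compared as an added description. The scripts were tested on simulated data.

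The section block was taken from the label prefix. Segments of the same region correlated at a median r of 0.902 within a section and 0.888 between sections. The segments compared held 378678 to 947255 counts each, and the median SE of a difference was 0.29 on the log2 scale. The comparison, its lists, and its tests were chosen with earlier results of these data known.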

Additional observations from a re-analysis of the deposited data

Results flagged for a closer look

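Cortical replicate 1 stood apart from the other cortical macrophage segments in the share of counts taken by the 72 probes higher in medulla, at 0.251% against 0.167% to 0.180%. Its gap to the nearest segment was 0.853 of the range of the 4 segments, above Dixon's critical value for 4 values. This was 1 of 26 such tests, and chance passes about 1 in 20. The 72 probes were chosen on these same segments, which the critical value does not take into account. Cortical replicate 1 is also the segment with the most counts.

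In the test of the difference between the sections of the vehicle arm, 7 probes had a different medulla-cortex effect, and DESeq2 called 3 others. Between macrophage and tubule segments of the same ROIs, 83 probes had a different medulla-cortex effect, 5 of them among the 158 called in macrophages. Between the vehicle and entospletinib arms, 87 probes had a different effect in macrophage segments, 14 of them among the 158.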

How the results depend on the processing

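The number of calls, 158, stayed within 1.5 times under 16 of 19 alternatives (117 to 206 calls). It moved to 103 in section 1 alone and 238 in section 2 alone. The probes called were not always the same. Under those 16, between 96 (without medullary replicate 2) and 158 (no filter on low counts) of the 158 were called again. With TMM 135 were, with DESeq2 108, without the block 109, and when thinned 112. Without the replicate block there were 122 calls, 40 higher in medulla and 82 higher in cortex. Leaving out 1 segment gave 117 to 277 calls, 277 without cortical replicate 1. No named probe changed direction in any of the 19 alternatives of that comparison. The 7 calls between sections became 3 with DESeq2, and 3 to 20 as 1 segment was left out (3 without medullary replicate 1, 20 without cortical replicate 1, 11 without medullary replicate 2 and 11 without cortical replicate 2). The 181 tubule calls became 330 with DESeq2, 138 without the replicate block, and 121 to 313 as 1 segment was left out. The 83 calls between compartments became 99 with TMM, 52 with DESeq2, 2 without the replicate block, 34 when thinned, and 24 to 182 as 1 ROI was left out. The 204 entospletinib calls ranged from 149 to 218, with 161 without the replicate block, and from 166 to 214 as 1 segment was left out. The 87 calls between arms became 37 without the replicate block, 16 when thinned, and 62 to 110 as 1 segment was left out. The named probes kept their calls without the block. The difference in log2 total counts was -0.074 to 0.17 as 1 segment was left out and changed sign in 3 of 8 cases, with exact permutation p-values of 0.389 to 1.00. The causes of these changes were not tested, except that thinning leaves fewer counts. With 2 sections per arm, no test over ROIs reaches beyond these mice.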
